A study of Drosophila melanogaster with 8 samples.

Results

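The unfolded protein response and the chaperones of the endoplasmic reticulum (ER) were followed through 10 genes, chosen by their FlyBase symbols: Xbp1, crc, Hsc70-3, Cnx99A, Calr, Gp93, Pdi, Ire1, PEK and Atf6. Of the 15438 genes in each deposited table, 9 of these 10 were found by gene ID, and Pdi, whose current ID has no row under that number, was not analysed here. RNA came from S2 cells, a Drosophila line of late embryonic origin that resembles macrophage-like hemocytes. Stable S2 lines had received vectors with mutant or wild-type Beaf, with the neomycin resistance gene, and were selected with G418 for about 10 days, with 3 libraries of mutant and 3 of wild-type Beaf. BEAF-32 (Beaf), an insulator protein, sits near many promoters, and the labels do not say what the mutation changes. A further library came from cells given double-stranded RNA against CTCF, another insulator protein (400 µg, 5 days), and 1 from its control, whose treatment the labels do not describe further. Beaf libraries are numbered by the deposited table that held them (1 to 3), and nothing says whether the 3 libraries of a line were separate cultures, so p-values measure a spread that may be technical. Each genotype is a transfected line, so genotype and anything else that sets the 2 lines apart cannot be told apart.

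Secretory and membrane proteins fold in the ER with the help of chaperones, and unfolded proteins there activate 3 sensor proteins of the ER membrane, Ire1, PEK and Atf6. Ire1 is an RNase that cuts an intron out of Xbp1 mRNA in the cytoplasm, so that the transcription factor Xbp1 is made in its active form. PEK (PERK in mammals) phosphorylates the translation factor eIF2alpha, which lowers translation in general but favours that of crc, the fly ATF4. Atf6 is cut by proteases in the Golgi and its released part acts as a transcription factor in mammals. Counts per gene do not separate the cut from the uncut form of Xbp1 mRNA, and they do not show phosphorylation or cleavage of the sensors, so only RNA levels are described.

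Each Beaf library held 1528041 to 1885689 gene reads (deposited values for wild-type library 3), against 9267319 in the CTCF knockdown and 10963743 in its control. Over these 8 libraries the 9 genes held between 27 and 22331 reads each. BEAF-32 stood at 1228, 1613 and 1929 CPM (a gene's share of all gene values in its library, scaled to a common total) in mutant libraries 1 to 3, against 25.0, 469 and 676 CPM in wild-type libraries 1 to 3. CTCF stood at 11.3 CPM in the knockdown and at 55.4 CPM in its control. Library 1 of each line differed most from its 2 companions. The 8 hemocyte markers of S2 cells summed to 9187 to 12496 CPM in mutant and to 1467 to 5912 CPM in wild-type Beaf libraries, and the lowest was wild-type library 1. Of 3 neuronal markers elav was at 0 in all 8 libraries, and brp, a synaptic gene, reached 130.0 CPM in mutant library 1, against 38.2 to 53.7 CPM in the other 5 Beaf libraries. Epithelial markers summed to 326 CPM in mutant library 1 and to 129 and 130.2 CPM in mutant libraries 2 and 3, against 22.1 to 58.9 CPM in wild-type libraries. The single muscle marker and the summed fat body markers stayed at or below 6.19 CPM in every library. The gonadal marker bam stood at 18.8 to 21.0 CPM in mutant libraries, against 0.471 to 10.1 CPM in wild-type libraries, without overlap. Of the 6564 genes tested below, 17.5% were likewise higher in every mutant library. The part of these markers in the results below was not tested. In bulk RNA, fewer cells of a type and less RNA per cell cannot be told apart.

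The first question was how abundant these RNAs were. Levels of different genes were compared as CPM per kilobase of exon, with exon lengths from the BDGP6.54 annotation, which need not be the authors'. On that scale Calr was the most abundant of the 9 genes in every group, and the 3 sensors were the scarcest. Calr (calreticulin, a calcium-binding chaperone of glycoproteins) averaged 610.0 ± 98.5 CPM per kilobase in mutant and 649 ± 22.7 in wild-type Beaf libraries (SD, n = 3 each). Hsc70-3, the fly BiP, the ER chaperone of the Hsp70 family, averaged 606 ± 73.4 and 581 ± 42.4 CPM per kilobase in the mutant and wild-type libraries (SD, n = 3 each). These top 2 genes overlapped among the mutant libraries and did not overlap among the wild-type libraries.

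Below them, Xbp1 averaged 300.4 ± 23.8 CPM per kilobase in mutant and 303 ± 7.54 in wild-type Beaf libraries (SD, n = 3 each). Gp93, the ER chaperone of the Hsp90 family, followed with 296 ± 59.2 and 242 ± 12.1 CPM per kilobase in mutant and wild-type libraries (SD, n = 3 each). Xbp1 was above Gp93 and Cnx99A in all 4 groups, as a mean in the Beaf lines and in the single CTCF libraries. Xbp1 and Gp93 did not overlap among wild-type libraries but did among mutant libraries. In mutant library 1 Gp93 was the higher, at 364 against 276 CPM per kilobase. In the CTCF knockdown Xbp1 also exceeded Hsc70-3, at 603 against 585 CPM per kilobase, and in the CTCF control at 659 against 568. The order of the next pair differed between the lines: Cnx99A (calnexin, the membrane-bound relative of calreticulin) had 167.5 CPM per kilobase and crc 163 in the mutant mean, against 132 for Cnx99A and 209 for crc in the wild-type mean. The libraries of these 2 genes overlapped in the mutant line and not in the wild-type line. The sensors PEK, Ire1 and Atf6 averaged 35.4, 24.3 and 16.2 CPM per kilobase in mutant libraries and 26.7, 25.8 and 19.2 in wild-type libraries. Neighbouring sensors overlapped for Ire1 and Atf6 in mutant and for PEK and Ire1 in wild-type libraries.

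**Figure D1:**
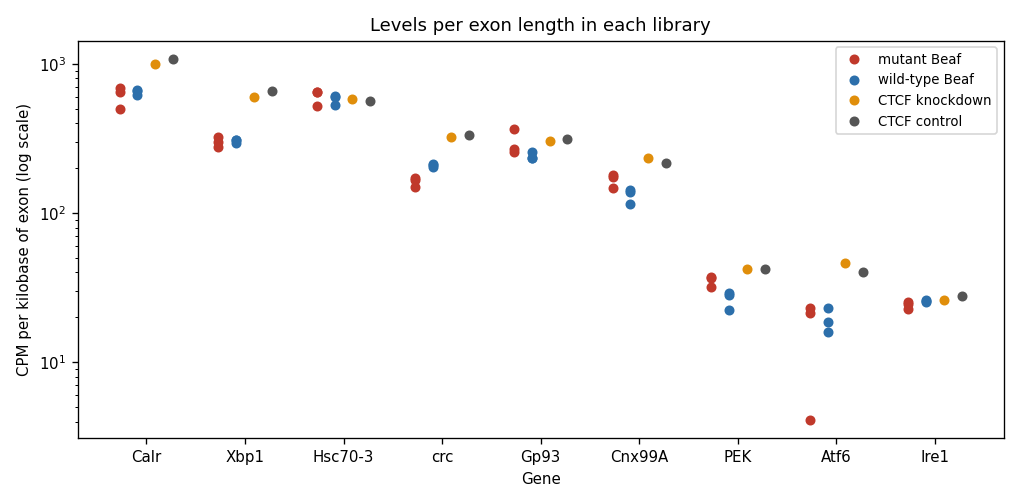
Levels of the 9 genes in CPM per kilobase of exon (vertical axis, log scale), 1 point per library, coloured by group and ordered by the level in the CTCF control. The chaperones, Xbp1 and crc lie above 100 CPM per kilobase in all 8 libraries, the sensors lie below 50, and mutant library 1 has an Atf6 point at 4.09.

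The second question was how the genes differed between mutant and wild-type Beaf. Among the members, crc was lower in all 3 mutant libraries than in any wild-type library, as for 18.4% of all tested genes. Cnx99A, PEK and Gp93 were higher in all 3, as for 17.5%. Hsc70-3, Calr, Xbp1, Ire1 and Atf6 overlapped between the lines. With all 6 libraries, limma-trend called 0 of 6564 genes at a Benjamini-Hochberg adjusted p of 0.05 (0%), so no member passed either. At an unadjusted p under 0.05 the same fit gave 3 of the 9 members (crc, Cnx99A and PEK) and 1274 of 6564 genes (19.4%). EdgeR's quasi-likelihood test and limma-voom also called 0 genes, and DESeq2 called 216, with 0 members among them. CPM did not overlap between the lines for 4 of the 9 members (crc, Cnx99A, PEK and Gp93), where 36% of all tested genes did not overlap. Of the 4, 3 were higher in the mutant (17.5% of all tested genes) and 1 was lower (18.4%).

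Because both libraries numbered 1 stood apart, the fit was repeated on libraries 2 and 3 of each line, which narrows the spread that its p-values measure. There 977 of 6619 genes passed in limma-trend (14.8%), with 9.34% higher and 5.42% lower in the mutant, and 27.9% had an unadjusted p under 0.05, against 3 of the 9 members (the same crc, Cnx99A and PEK). Of the 9 members Cnx99A rose and crc fell, 1 in each direction, which is a share near that background. All 9 members passed the filter on low values in this fit and in that of all 6 libraries. DESeq2 on recovered reads called neither of these 2 members (adjusted p = 0.302 for Cnx99A and 0.35 for crc), and it called 175 genes in all. The median log2 fold change was 0.10 over the 9 members and −0.01 over all tested genes.

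**Figure D2:**
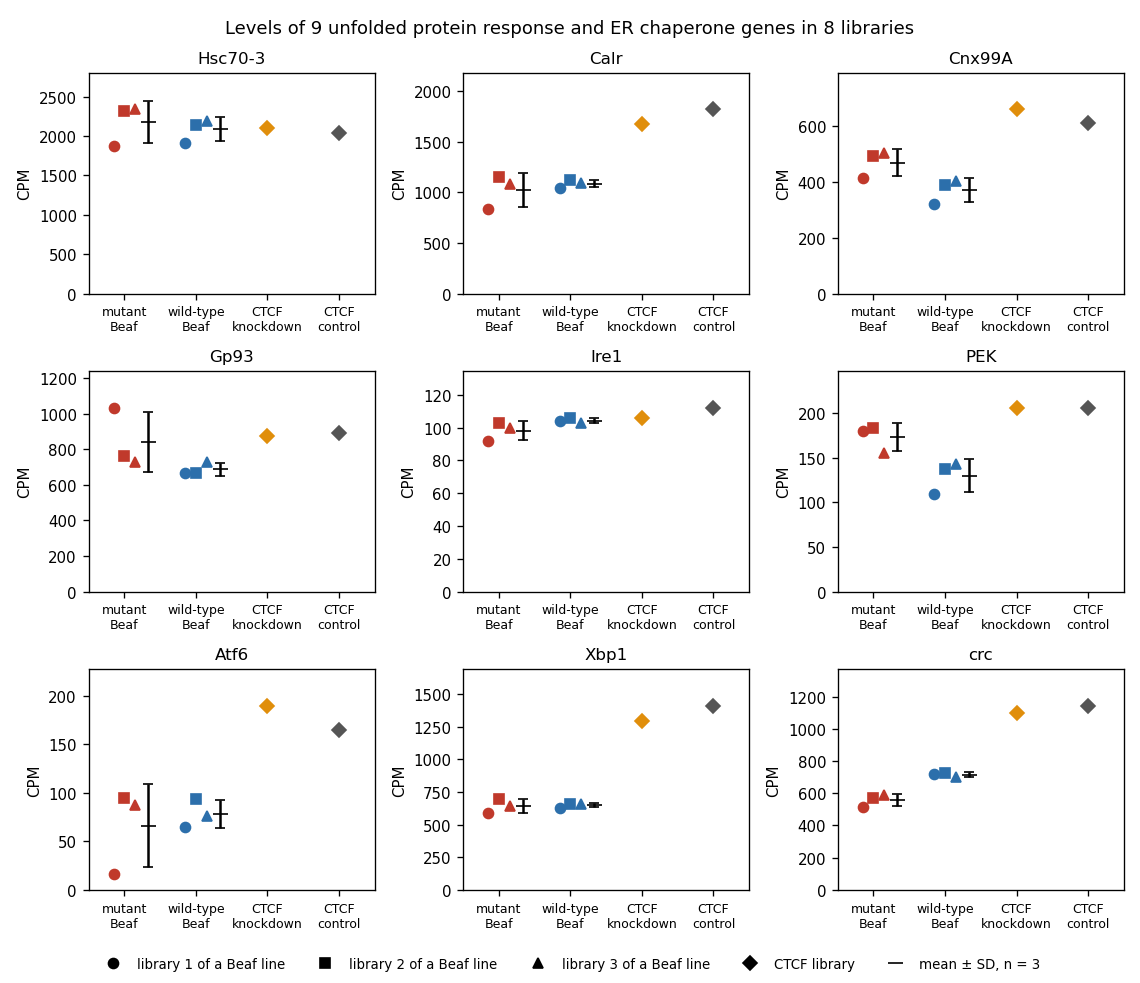
CPM of each of the 9 genes (vertical axes from 0) in mutant Beaf, wild-type Beaf, CTCF knockdown and CTCF control libraries. Points are single libraries with a shape for each table, and bars give the mean ± SD of the 3 libraries of a Beaf line. The points of crc, Cnx99A, PEK and Gp93 do not overlap between the Beaf lines, as for 36% of all tested genes. The Atf6 point of mutant library 1 lies at 16.7 CPM.

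Among the chaperones, Hsc70-3 is the most widely used RNA marker of ER stress. It stood at 1872, 2317 and 2338 CPM in mutant libraries 1 to 3, against 1911, 2144 and 2197 CPM in wild-type libraries 1 to 3. The libraries numbered 1 were the lowest of each line, and the lines overlapped. In libraries 2 and 3 the log2 fold change was 0.10 (SE 0.06, limma adjusted p = 0.332), with a 95% interval from 0.978-fold to 1.17-fold. A change of more than 1.17-fold in either direction thus lay outside the interval.

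Calr stood at 837, 1151 and 1081 CPM in mutant libraries 1 to 3, against 1045, 1119.5 and 1098 CPM in wild-type libraries 1 to 3. Mutant library 1 was below every wild-type library, while mutant library 2 was above all 3 and mutant library 3 among them. The log2 fold change in libraries 2 and 3 was 0.01 (SE 0.06, limma adjusted p = 0.967), with a 95% interval from 0.915-fold to 1.10-fold.

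Cnx99A, which like calreticulin holds newly made glycoproteins until they fold, stood at 412, 491 and 501 CPM in mutant libraries 1 to 3, against 319.9, 389 and 401 CPM in wild-type libraries 1 to 3. Every mutant library was above every wild-type library, as for 17.5% of all tested genes, by a narrow margin for mutant library 1. It rose 1.25-fold in libraries 2 and 3 (log2 fold change 0.32, SE 0.07, limma adjusted p = 0.00267). Over the other settings the adjusted p ranged from 2.72e-05 to 0.302, and over the 4 fits that left out a library from 0.00476 to 0.0217. With all 6 libraries it was 0.40 on the log2 scale (SE 0.13, limma adjusted p = 0.217).

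The ratio of Cnx99A to Calr reads within a library does not depend on how libraries are scaled. It was 0.493, 0.427 and 0.464 in mutant libraries 1 to 3, against 0.306, 0.348 and 0.365 in wild-type libraries 1 to 3. All mutant values were thus above all wild-type values, from the same Cnx99A reads as the levels above. In the CTCF knockdown the ratio was 0.394, against 0.334 in its control.

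Gp93 stood at 1033, 759.9 and 727 CPM in mutant libraries 1 to 3, against 669, 664 and 726 CPM in wild-type libraries 1 to 3. Mutant library 1 alone was far above the rest, and mutant library 3 lay next to wild-type library 3. In libraries 2 and 3 the log2 fold change was 0.10 (SE 0.07, limma adjusted p = 0.382), with a 95% interval from 0.970-fold to 1.18-fold. With all 6 libraries it was 0.33 (limma adjusted p = 0.377), and it was 0.09 when mutant library 1 was left out. In the BDGP6.54 annotation 3.6% of the exon length of Gp93 overlaps CG4951 on the other strand, and the strand setting of the counting is not given in the sources used here.

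Summed over these 4 chaperones, the level was 4154, 4720 and 4647 CPM in mutant libraries 1 to 3, against 3946, 4317 and 4422 CPM in wild-type libraries 1 to 3. The sums overlapped between the lines. The 9 genes together took between 0.555% and 0.636% of gene values in the mutant libraries and between 0.557% and 0.610% in the wild-type libraries.

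Among the sensors, Ire1 varied least. It stood at 91.6, 102.9 and 99.7 CPM in mutant libraries 1 to 3, against 104.1, 105.8 and 102.8 CPM in wild-type libraries 1 to 3. The log2 fold change in libraries 2 and 3 was −0.04 (SE 0.10, limma adjusted p = 0.821), with a 95% interval from 0.835-fold to 1.12-fold. Over all 6 libraries the interval was wider, from 0.794-fold to 1.205-fold. In the BDGP6.54 annotation 12.3% of its exon length overlaps MICU3 on the other strand.

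PEK stood at 180.1, 183 and 154.8 CPM in mutant libraries 1 to 3, against 109.3, 137.6 and 142.9 CPM in wild-type libraries 1 to 3. All mutant libraries were above all wild-type libraries, as for 17.5% of all tested genes, with mutant library 3 nearest to the wild-type libraries. The log2 fold change in libraries 2 and 3 was 0.26 (SE 0.10, limma adjusted p = 0.0766), with a 95% interval from 1.04-fold to 1.37-fold, so it did not pass the threshold. It passed with edgeR's quasi-likelihood test (adjusted p = 0.0423), with a replicate block for the table of origin (limma adjusted p = 0.0371), among protein-coding genes only (0.0479) and without mutant library 3 (0.0332). Over all settings its adjusted p ranged from 0.0332 to 0.77. The ratio of PEK to Ire1 reads was 1.97, 1.78 and 1.55 in mutant libraries 1 to 3, against 1.05, 1.30 and 1.39 in wild-type libraries 1 to 3. This ratio uses the same PEK reads as the levels above, so it is not a separate result.

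Atf6 had the widest spread of the 9 genes, 2.20 on the log2 scale over the 6 Beaf libraries. It stood at 16.7, 94.4 and 87.4 CPM in mutant libraries 1 to 3, against 65.0, 94.2 and 75.8 CPM in wild-type libraries 1 to 3. Mutant library 1 was far below all others: its 27 reads give a 95% Poisson interval of 11.0 to 24.3 CPM for counting error, below the lowest bound of the others, 53.6 CPM in wild-type library 1. With all 6 libraries the log2 fold change was −0.51 (SE 0.56, limma adjusted p = 0.589), and without mutant library 1 it was 0.20 (limma adjusted p = 0.408), so its direction rested on that library. In libraries 2 and 3 it was 0.10 (SE 0.12, limma adjusted p = 0.655), with a 95% interval from 0.897-fold to 1.28-fold. Atf6 lies on 2R and, in the BDGP6.54 annotation, its exons overlap transposable elements over 11.0% of their length on the same strand and 19.8% on the other.

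The 5 genes whose pattern over the 6 Beaf libraries was closest to that of Atf6 were CG4611, CG18081, BI-1 (Bax inhibitor-1, an ER membrane protein), LManII (a lysosomal mannosidase) and FBgn0040954. Likeness was the root mean square difference of centred log2 CPM, over 6563 genes, and ranged from 0.13 for CG4611 to 0.17 for FBgn0040954. All 5 shared the dip in mutant library 1, which follows largely from choosing them by likeness to Atf6 over these same libraries. BI-1 stood at 8.05, 48.3 and 50.5 CPM in mutant libraries 1 to 3, against 38.2, 46.0 and 50.1 CPM in wild-type libraries 1 to 3.

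Among the transcription factors, Xbp1 stood at 592, 694 and 645 CPM in mutant libraries 1 to 3, against 631, 659 and 659 CPM in wild-type libraries 1 to 3. The mutant libraries lay on both sides of the wild-type libraries. The log2 fold change in libraries 2 and 3 was 0.02 (SE 0.07, limma adjusted p = 0.897), with a 95% interval from 0.920-fold to 1.11-fold. Over all 6 libraries the interval was wider, from 0.842-fold to 1.255-fold. The Xbp1 level is the total of cut and uncut mRNA, so it says nothing of Ire1 activity.

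The ATF4 gene crc stood at 515, 571 and 587 CPM in mutant libraries 1 to 3, against 718, 729 and 699 CPM in wild-type libraries 1 to 3. Every mutant library was below every wild-type library, as for 18.4% of all tested genes. The spread of crc within each line was small (557.6 ± 37.8 CPM in mutant and 715 ± 15.0 CPM in wild-type libraries, SD, n = 3 each). It fell to 0.810 of the wild-type level in libraries 2 and 3 (log2 fold change −0.30, SE 0.07, limma adjusted p = 0.00371). Over the other settings the adjusted p ranged from 2.49e-05 to 0.35, and over the 4 fits that left out a library from 0.00157 to 0.022. With all 6 libraries it was also −0.30 on the log2 scale (SE 0.12, limma adjusted p = 0.251).

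The ratio of crc to Xbp1 reads was 0.870, 0.823 and 0.910 in mutant libraries 1 to 3, against 1.14, 1.11 and 1.06 in wild-type libraries 1 to 3, without overlap. It uses the same crc reads as the levels above, so it is not a separate result. In the BDGP6.54 annotation 73.5% of the exon length of crc lies under CG46314 on the same strand, a gene with no row in the deposited tables. Which of the 2 genes those reads came from cannot be told apart here. The summed hemocyte markers, given above, were also higher in every mutant library than in any wild-type library. Singly, 4 of the 8 markers (Hml, srp, Col4a1 and vkg) were so, beside 17.5% of all tested genes. The part of these markers in the differences of crc, Cnx99A and PEK was not tested.

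**Figure D3:**
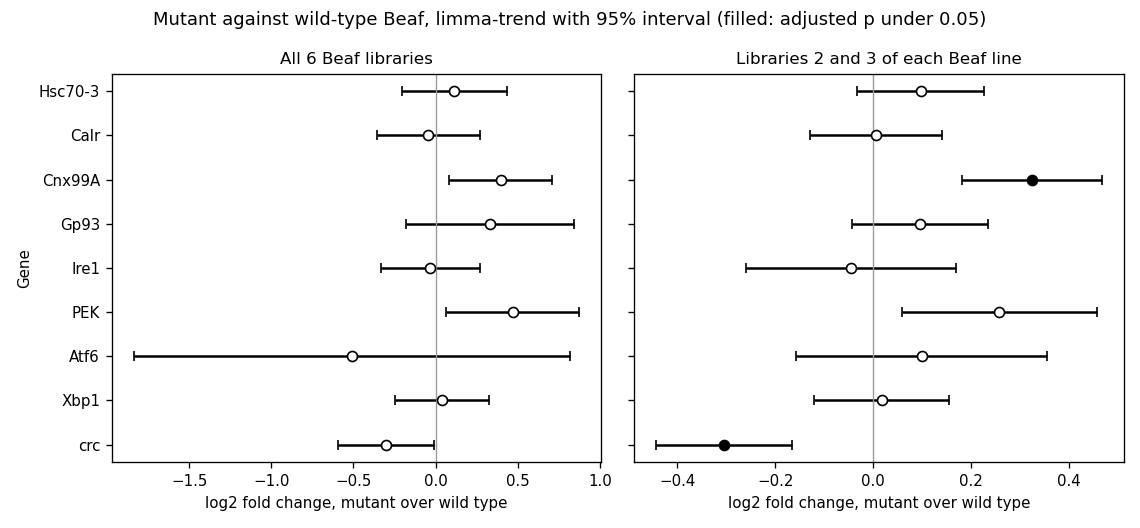
Log2 fold changes of mutant over wild-type Beaf for the 9 genes (horizontal axes, which differ in scale), with 95% intervals from limma-trend. The left panel uses all 6 libraries and the right panel libraries 2 and 3 of each line. Filled points passed an adjusted p of 0.05, and these are Cnx99A at 0.32 and crc at −0.30 in the right panel.

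The third question was whether other genes of the same pathway differed. Lists of 74 genes in 6 groups were used, of which 64 had a row in the tables and 61 passed the filter on low values. In libraries 2 and 3 limma-trend called 3 of these 61 higher and 7 lower in the mutant, beside the 9.34% higher and 5.42% lower of all tested genes. The same 2 shares stand beside the counts of each list below. The median log2 fold change over the 61 genes was −0.04, beside −0.01 over all. With all 6 libraries 0 of the 61 passed. In that limma-trend fit 10 of the 61 had an unadjusted p under 0.05, beside 19.4% of all tested genes. The median was −0.27, beside −0.02 over all tested genes.

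ER folding helpers had 1 of 11 higher and 0 lower in libraries 2 and 3, with a median log2 fold change of 0.04. The gene that rose was Grp170, a large Hsp70-related chaperone that also serves as a nucleotide exchange factor for BiP. It had 517 CPM in mutant library 2 and 477 in mutant library 3, against 435 in wild-type library 2 and 402 in wild-type library 3, with a log2 fold change of 0.24 and a limma adjusted p of 0.0286. Leaving out mutant library 2 gave an adjusted p of 0.191, leaving out wild-type library 3 gave 0.218, DESeq2 gave 0.616, and the fit with no filter on low values gave 0.101. In the libraries left out it stood at 709 CPM in mutant library 1, against 375 CPM in wild-type library 1.

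Glycan quality control and N-glycosylation had 1 of 13 higher and 0 lower, with a median of 0.03. The gene that rose was GCS2alpha, the catalytic subunit of glucosidase II, which trims glucose from new glycoproteins and so governs their binding to calnexin and calreticulin. It stood at 299.5, 466 and 469 CPM in mutant libraries 1 to 3, against 193, 278 and 327 CPM in wild-type libraries 1 to 3. The mutant and wild-type libraries overlapped through mutant library 1. In libraries 2 and 3 its log2 fold change was 0.63 with a limma adjusted p of 1.14e-05, and the adjusted p stayed at or below 0.00234 over the other settings run, DESeq2 included.

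ER-associated degradation, by which misfolded proteins are drawn out of the ER and destroyed, had 0 of 6 higher and 1 lower, with a median of −0.29. Ufd1, a cofactor of the extraction ATPase, had 15.9 CPM in mutant library 2 and 23.3 in mutant library 3, against 36.5 in wild-type library 2 and 30.7 in wild-type library 3. Its log2 fold change was −0.76 with a limma adjusted p of 0.0276, and the adjusted p was 0.219 when mutant library 2 was left out, 0.124 when wild-type library 2 was, and 0.425 with DESeq2. Mutant library 1 held 13.0 CPM of it, against 33.9 CPM in wild-type library 1.

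The eIF2 phosphorylation branch had 1 of 8 higher and 1 lower, with a median of −0.07. Thor (4E-BP, an inhibitor of translation initiation and a target of crc in flies) stood at 95.3, 155 and 164.5 CPM in mutant libraries 1 to 3, against 217, 217 and 203 CPM in wild-type libraries 1 to 3. Every mutant library was below every wild-type library, as for 18.4% of all tested genes. The log2 fold change in libraries 2 and 3 was −0.40 with a limma adjusted p of 0.0037. Sesn (sestrin, an inhibitor of TORC1) stood at 178, 154 and 155 CPM in mutant libraries 1 to 3, against 89.5, 119.6 and 114 CPM in wild-type libraries 1 to 3. Every mutant library was above every wild-type library, as for 17.5% of all tested genes. The log2 fold change of Sesn in libraries 2 and 3 was 0.40 with a limma adjusted p of 0.00635. DESeq2 on recovered reads called neither (adjusted p = 0.342 for Thor and 0.412 for Sesn).

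Translocation into the ER had 0 of 14 higher and 2 lower, with a median log2 fold change of −0.16 in libraries 2 and 3. The 2 were Sec61gamma, the small subunit of the protein channel, at −0.54 (limma adjusted p = 0.0312), and SsRbeta, a subunit of the channel's TRAP complex, at −0.31 (0.0215). SsRbeta stood at 37.1, 178 and 160.0 CPM in mutant libraries 1 to 3, against 224, 217 and 202 CPM in wild-type libraries 1 to 3. Mutant library 1 stood far below the others in it, and with all 6 libraries the list's median was −0.54 with 0 of 14 genes above 0, where 48.1% of all tested genes were. Without mutant library 1 the median was −0.20, with 2 of 14 above 0, against 47.6% of all tested genes. Sec61gamma lost its call when mutant library 2 (adjusted p = 0.225) or wild-type library 3 (0.212) was left out. SsRbeta lost its call when mutant library 3 (0.181) or wild-type library 2 (0.138) was left out. DESeq2 called neither (adjusted p = 0.501 for Sec61gamma and 0.613 for SsRbeta).

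ER exit and retrieval had 0 of 9 higher and 3 lower, with a median of −0.16. The 3 were Sec23 (−0.37, limma adjusted p = 0.00907), Sec24CD (−0.32, 0.0221) and Sec31 (−0.31, 0.031), all parts of the COPII coat that buds vesicles from the ER. Sec23 stood at 125, 189 and 162 CPM in mutant libraries 1 to 3, against 219, 234 and 217 CPM in wild-type libraries 1 to 3. It was lower without overlap, as were 18.4% of all tested genes. All 3 lost their call without mutant library 3 (adjusted p = 0.118, 0.117 and 0.394) and with DESeq2 (0.442, 0.537 and 0.654). Sec24CD also lost it without wild-type library 3 (0.233) and Sec31 without wild-type library 2 (0.0764).

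**Figure D4:**
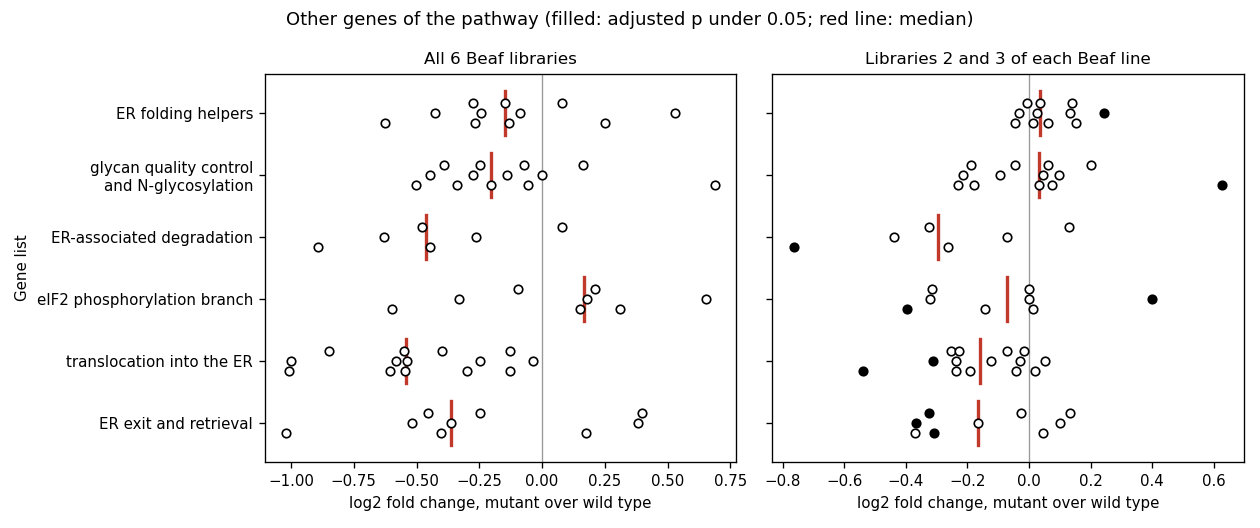
Log2 fold changes of mutant over wild-type Beaf (horizontal axes, which differ in scale) for the tested genes of 6 pathway lists, 1 point per gene, with red lines at the list medians. Filled points passed an adjusted p of 0.05, and there were 0 with all 6 libraries (left) and 10 in libraries 2 and 3 (right). The median for translocation into the ER is −0.54 on the left and −0.16 on the right.

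The last question was how the genes differed between CTCF knockdown and control, with 1 library each and therefore no replicate check and no p-value. Members were close to the control level: 0 of the 9 reached 1.5-fold, where 7.05% of 7868 genes did (4.42% higher and 2.63% lower in the knockdown), and 0 reached 2-fold, where 2.16% did. Fold changes below are on TMM-scaled log2 CPM (scaling factors that align most genes), and the ratios of CPM carry 95% intervals for counting error only. The median log2 fold change was −0.08 over the 9 members and 0.00 over all genes compared.

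Hsc70-3 stood at 2101 CPM in the knockdown and at 2037 CPM in its control. The ratio of CPM was 1.03, with a counting interval from 1.01 to 1.05, and the TMM-scaled fold was 0.995, so its direction depended on the scaling. Calr stood at 1672 CPM in the knockdown and at 1820.4 CPM in its control, a TMM-scaled fold of 0.887. Xbp1 stood at 1292 CPM in the knockdown and at 1413 CPM in its control, a fold of 0.883. These were the lowest folds of the 9 genes.

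The largest fold was that of Atf6, at 190.02 CPM in the knockdown and 164.9 CPM in its control, 1.11 by TMM and 1.15 by CPM (counting interval 1.08 to 1.23). Cnx99A stood at 658 CPM in the knockdown and at 609 CPM in its control, a fold of 1.04. The TMM-scaled folds of crc, Gp93, Ire1 and PEK were 0.928, 0.947, 0.909 and 0.964. Among the 61 other pathway genes 0 reached 1.5-fold, beside 7.05% of all genes compared, and the median log2 fold change of the 61 was −0.02.

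**Figure D5:**
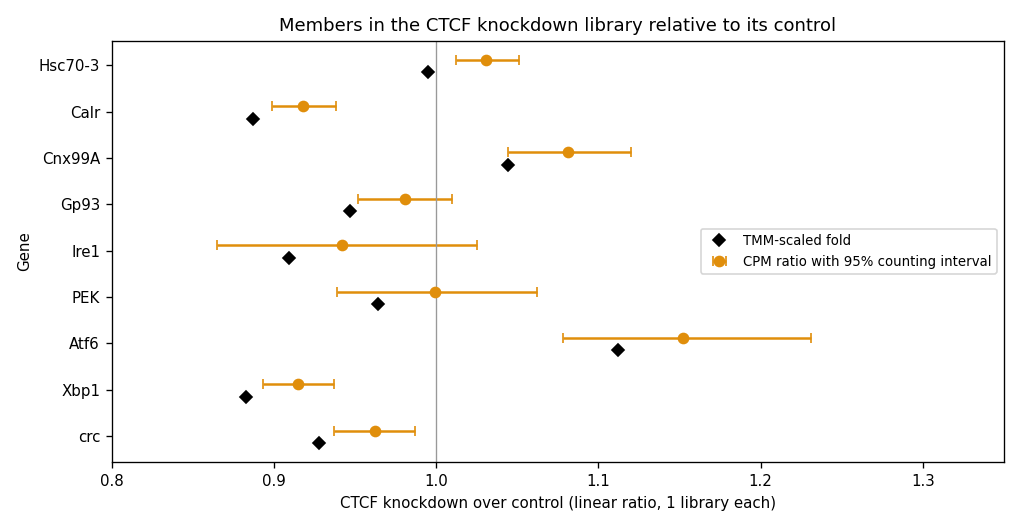
CTCF knockdown over control for the 9 genes (horizontal axis, linear ratio, 1 library each). Circles are ratios of CPM with 95% counting intervals and diamonds are TMM-scaled folds. All folds lie between 0.883 for Xbp1 and 1.15 for Atf6.

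Levels also differed between the CTCF libraries and the Beaf lines, which come from other treatments and separately normalised tables, and to which 2 described library preparations cannot be assigned. Xbp1 was 2.17 times and Atf6 2.11 times as high in the CTCF control as in the wild-type Beaf mean, while Hsc70-3 was at 0.98 and Ire1 at 1.08 of it. Calr, Cnx99A, crc, PEK and Gp93 lay between, at 1.67, 1.64, 1.60, 1.58 and 1.29 times. The ratio of Xbp1 to Hsc70-3 reads was 0.615 in the knockdown and 0.694 in its control, against 0.276 to 0.316 in mutant and 0.300 to 0.330 in wild-type Beaf libraries. Treatment, library preparation and line cannot be told apart in this contrast.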

How the data were processed

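RNA-seq of S2 cells was deposited by the authors as 4 tables of values per gene. The submitters' processing notes name CASAVA 1.8, BWA and HTSeq. Not given in the sources used here were the genome build, annotation and strand setting. The labels' protocols describe 2 TruSeq preparations, 1 of them without poly-A selection, and do not say which libraries each covers. The deposited mutant and knockdown columns hold whole-number read counts. The deposited columns of wild-type libraries 1 and 2 and the control hold a signal, reads rescaled with a factor of each column's own and rounded, as read from the values. Factors of 1.234, 1.237 and 1.297 accounted for 99.99%, 100.0% and 99.91% of their positive values, where 81.0%, 80.8% and 77.1% would be by chance. A value counted only if it equalled a whole number of reads times the factor, rounded to the nearest whole number, with no further tolerance. No such factor was found for wild-type library 3 within the range searched, and factors outside that range were not looked for. This library was treated as signal and used as deposited, also in the fits on recovered reads. Because rescaled values are not counts, limma-trend was the main test.

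Reads outside annotated features made up 85.6% to 87.4% of the mutant and 91.3% to 94.0% of the wild-type Beaf libraries. In the knockdown they made up 6.93% and in its control 8.05%. Unaligned reads made up 7.61% to 10.4% of the mutant and 0.79% to 3.55% of the wild-type Beaf libraries. In the knockdown they made up 45.1% and in its control 18.4%. Neither share overlapped between the Beaf lines, and their part in the results was not tested. The 5 rows that name no gene stayed out of totals and tests. Of 15438 gene rows, 14606 matched a symbol. Deposited values were scaled with TMM factors (0.877 for mutant library 1, 0.991 to 1.044 for the other Beaf libraries), converted to log2 CPM (prior count 2) after filterByExpr. P-values were two-sided and adjusted over all genes tested by Benjamini-Hochberg at 0.05. CTCF genes were kept with a value of at least 10 in 1 library. Pathway genes named were, per list, the up to 3 of largest change past the threshold. The members and lists were chosen with earlier results of these data known, and the comparison of libraries 2 and 3 likewise. The limma script was tested on simulated data. Depth limits precision for scarce genes. Python 3.11.15 was used with numpy 2.4.6, pandas 2.3.3, matplotlib 3.10.9 and scipy 1.17.1, and R 4.3.3 with DESeq2 1.42.0, edgeR 4.0.16 and limma 3.58.1. Alternatives covered scaling, filter, prior count, test, replicate block and each library left out.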

Additional observations from a re-analysis of the deposited data

How the results depend on the processing

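With all 6 Beaf libraries the count of called genes was 0 in the main fit, 216 with DESeq2 on recovered reads and 0 to 471 when 1 library was left out, the 471 without mutant library 1; members called were 0, and 0 to 2 with 1 library left out. In libraries 2 and 3 the 977 calls became 175 with DESeq2 and 660 to 905 with 1 library left out, and the 2 member calls became 0 with DESeq2, 4 among protein-coding genes only (an alternative chosen after seeing the data, which added Hsc70-3 and PEK) and 2 to 3 with 1 library left out. Without the filter on low values, which moved the median log2 fold change of all genes with all 6 libraries to 0.20, Xbp1 and Hsc70-3 turned to −0.104 and −0.03 with all 6 libraries, and Xbp1 and Calr to −0.008 and −0.02 in libraries 2 and 3; Xbp1 was also −0.017 with all 6 when scaled by gene total only. With 1 library left out of all 6, Calr ranged from −0.076 to 0.011 and Atf6 from −0.872 to 0.201; with 1 left out of libraries 2 and 3, Xbp1 ranged from −0.028 to 0.06, Calr from −0.034 to 0.041 and Atf6 from −0.074 to 0.269. None of these reversed values passed the threshold. The cause of these shifts was not tested.

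For CTCF the 555 genes past 1.5-fold became 1736 without the filter on low values and 170 at 2-fold, with 0 members at any setting. The columns carry no replicate number. With a replicate block for the table of origin 0 genes were called with all 6 libraries. In libraries 2 and 3 that fit called 1230 genes, with 3 members (PEK added). Deviations of libraries of the same table correlated at −0.16, −0.12 and −0.08 for the 3 pairs. With 3 libraries per line, correlations this small cannot decide whether libraries of the same table were paired. Column totals, with the rows that name no gene, nearly matched between the mutant and wild-type libraries of the same number. They were 42309695 and 42309270 for libraries 1, 39818011 and 39817545 for libraries 2, and 32297309 and 32297763 for libraries 3. Among the alternative values of single genes in libraries 2 and 3, 248 kept their direction and side of the threshold, 25 lost and 5 gained a call, and 7 reversed. Atf6, with 27 reads in mutant library 1, is the member that depth limits most.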
